A study of Homo sapiens with 12 samples.

Results

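The genes examined here were MYCN, MYC and the network around their partner MAX in HuH-7, a line of human liver cancer cells that carries a mutant p53. The 10 members are MYCN, MYC, MAX, MXD1, MXD3, MXD4, MXI1, MNT, MGA and MLX, out of 24251 gene names that passed the detection filter, and they were taken by the gene name that the array design gives to each probe. They have 25 of the 41000 gene probes, and all 25 passed the filter. The set was chosen from the lower MYCN signal of treated cells, which was already known, so the differences from DMSO are given as a description of the members, with no test.

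The cells received SLMP53-2, a compound studied as a reactivator of mutant p53, for 24 h at 28 µM or at 42 µM, or its solvent DMSO alone, with 4 arrays in each of the 3 groups. Sample titles give the higher dose as 42 µM and the treatment entries of the same arrays as 48 µM, and 42 µM is used here. All groups share one cell line with its mutant p53, so no group without the mutant protein entered the comparison, and the arrays hold RNA of whole cultures. In such RNA, fewer cells that carry a transcript and less of it per cell cannot be told apart. The study's methods call the 4 arrays of a group biological replicates.

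MYC and MYCN are transcription factors that bind DNA as a pair with MAX, at a short motif called the E-box, and raise the transcription of genes for growth, ribosome production and metabolism. MXD1, MXD3, MXD4, MXI1 and MNT also pair with MAX, bring in SIN3 and histone deacetylases and repress genes at the same motif, while MGA is a large MAX partner found in a Polycomb complex. MLX is the counterpart of MAX in a parallel branch with MLXIP and MLXIPL, which respond to glucose. MYC is well known as a driver of liver tumours, and MYCN as the amplified oncogene of neuroblastoma.

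On these 1-colour arrays each value is a log2 spot intensity after background correction and quantile normalization, which compares 1 probe between arrays and not 1 gene with another. Between 65.0% and 85.0% of the gene spots of an array were well above background, and the 12 arrays lay on 5 slides. All 9 hepatocyte markers were detected on every array. So were 3 of 4 leukocyte and macrophage markers, 3 of 5 fibroblast and stellate markers and 1 of 3 endothelial markers. Only the leukocyte marker PTPRC was detected on no array. The array of 28 µM replicate 4 stood apart from its group: the median of 6 proliferation genes lay 0.39 above the DMSO mean on it, against −0.86 to −0.74 on the other 28 µM arrays. Values of the members at 28 µM that leaving it out moved by over 1.5 times, or past the limits, are also given without it, apart from differences of under 0.1 in size with and without it.

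The promoter of MYCN is shown because E2F factors are known to regulate this gene and because E2F8, a member of that family, was among the genes whose values were most like those of MYCN. E2F8 was picked by that likeness, and a link between it and MYCN was not tested. The sequence is the 250 bases before the start site, chr2:15940300-15940549 on the plus strand of GRCh38.p14, from RefSeq. Capitals mark the letters TTTGGCGC and, overlapping them, TTTCGCGC as read on the other strand.

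MYCN promoter: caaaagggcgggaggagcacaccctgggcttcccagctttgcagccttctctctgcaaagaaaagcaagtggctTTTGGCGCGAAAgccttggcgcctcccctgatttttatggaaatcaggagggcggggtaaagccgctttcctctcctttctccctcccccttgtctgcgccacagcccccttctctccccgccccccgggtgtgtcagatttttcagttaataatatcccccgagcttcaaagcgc

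The search covered both strands of 14 promoters of 9 members, each with 250 bases before and 50 after the start, and left out MYC. The E2F letters were TTTCCCGC, TTTGGCGC, TTTCGCGC and TTTGCCGC. They were found in MYCN, 176 and 172 bases before its start, and in 1 of the 3 promoters of MGA, and 3.31% of all 35116 promoters hold one of them. The E-box letters CACGTG were found in the promoters of MXD4, MNT and MLX, against 7.26% of all promoters. A match describes the sequence and does not show that a factor binds there.

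MYCN was lower on every treated array than on every DMSO array. Its brighter probe, on chromosome 2 at 16086767 to 16086826 of hg19, read 12.44, 12.42, 12.27 and 12.03 on DMSO. The values were 11.58, 11.16, 11.29 and 11.95 at 28 µM, and 10.61, 10.37, 11.09 and 10.94 at 42 µM. The 28 µM value nearest to DMSO came from replicate 4, and the 42 µM arrays lay below all 28 µM arrays. The log2 difference from DMSO was −0.80 at 28 µM and −1.54 at 42 µM (SE 0.19 from limma, n = 4), a 1.74-fold and a 2.90-fold lower signal. Without 28 µM replicate 4 the difference at that dose was −0.95. Among 24251 genes, each by its brightest probe, the difference at 42 µM was number 22 from the lowest.

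The second MYCN probe, whose position spans 16080808 to 16082071 on chromosome 2, was much dimmer and read the same direction with a smaller size. Its mean was 7.60 ± 0.20 (SD, n = 4) on DMSO, against 7.35 ± 0.17 for the lower dose and 7.11 ± 0.09 for the higher. All 42 µM arrays lay below DMSO on it and the 28 µM arrays overlapped, with log2 differences of −0.49 and −0.25. On the 3 slides that held both DMSO and 42 µM arrays, the brighter probe differed by −1.42, −1.90 and −1.33, and on the 3 with DMSO and 28 µM by −1.16, −0.44 and −0.32.

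MYC lay the other way from MYCN. Its brightest probe, on chromosome 8 and printed in 10 spots per array, read 11.43, 11.55, 11.66 and 11.37 on DMSO. The values were 12.92, 12.71, 12.70 and 11.83 at 28 µM, and 13.18, 13.01, 12.37 and 12.25 at 42 µM. Every treated array was above every DMSO array, and 28 µM replicate 4 was again the treated array nearest to DMSO. The log2 difference was 1.04 at 28 µM, 1.27 without replicate 4, and 1.20 at 42 µM (SE 0.24), or 2.05-fold and 2.29-fold. The 42 µM arrays overlapped those of 28 µM, with a difference between the doses of 0.16 (SE 0.24). Repeat spots on 1 array had an SD of 0.10 to 0.30, less than the spread between treated arrays. Within slides the 42 µM difference was 1.80, 1.35 and 0.83, and the 28 µM one 1.27, 1.55 and 0.17.

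The other 2 MYC probes did not show that pattern. A probe designed on an older MYC sequence averaged 8.60 ± 0.35 on DMSO, 8.45 ± 0.38 at 28 µM and 8.41 ± 0.14 at 42 µM, with overlapping groups and differences of −0.15 and −0.19. The third probe was not well above background on any DMSO array, and on 2 of 4 arrays at 28 µM and 1 of 4 at 42 µM. Its means of 5.90, 5.93 and 6.03 lie at or near background, so no fold is given. Which part of the transcript each probe reads was not analysed here.

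**Figure D1:**
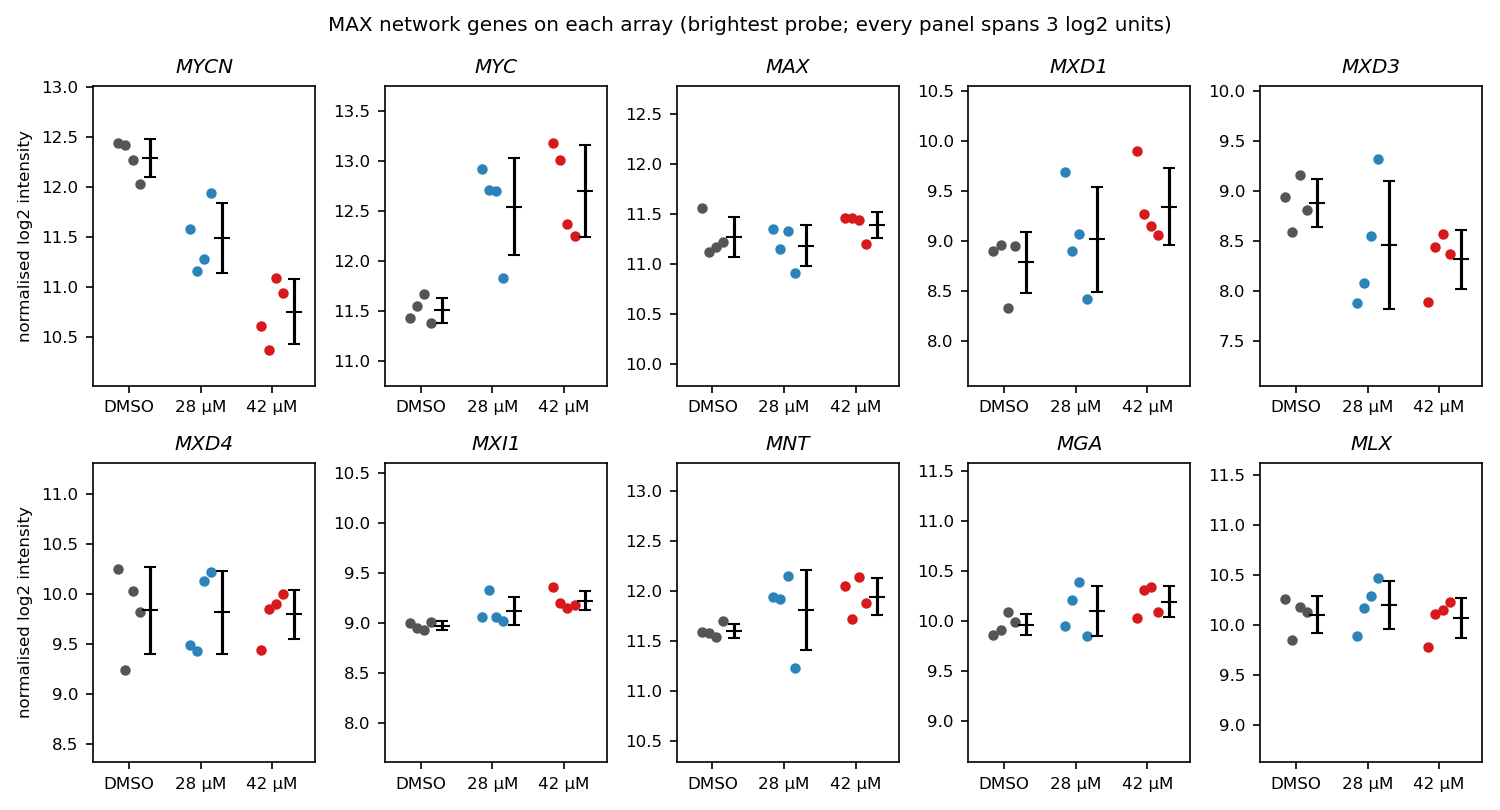
Normalised log2 intensity of the brightest probe of each member on every array; points are arrays, and the bar beside them is the mean ± SD of the 4 arrays of a group. MYCN is lower and MYC higher on all treated arrays than on all DMSO arrays, while MAX, MXD4, MGA and MLX overlap at both doses.

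MAX itself, the common partner, overlapped between groups on its brightest probe. It read 11.57, 11.13, 11.17 and 11.22 on DMSO, 11.35, 11.15, 11.33 and 10.91 at 28 µM, and 11.47, 11.46, 11.44 and 11.20 at 42 µM. The differences were −0.08 and 0.12 (SE 0.14). The other 2 probes, designed on other MAX transcripts, differed by 0.14 and 0.19 and by −0.17 and −0.09 at the 2 doses. The former was above all DMSO arrays at 42 µM, by a gap of 0.06, and without 28 µM replicate 4 it differed by 0.24 at that dose.

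Among the MXD repressors, MXD1 and MXD3 lay in opposite directions at 42 µM. MXD1, which accumulates as cells differentiate, read 8.90, 8.96, 8.33 and 8.95 on DMSO, 9.68, 8.90, 9.07 and 8.42 at 28 µM, and 9.90, 9.26, 9.15 and 9.06 at 42 µM. All 42 µM arrays were above DMSO, with a difference of 0.56 (SE 0.26), while the 28 µM arrays overlapped at 0.23. Its second probe differed by 0.23 and 0.28, with overlap at both doses. The differences at 28 µM were 0.43 on the brighter probe and 0.40 on the second without 28 µM replicate 4.

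MXD3, the MXD protein expressed in dividing cells, read 8.94, 8.59, 9.16 and 8.81 on DMSO. At 28 µM it read 7.88, 8.08, 8.55 and 9.32, and at 42 µM 7.89, 8.44, 8.57 and 8.37. All 42 µM arrays were below DMSO, by a gap of 0.02, and 28 µM replicate 4 was above every DMSO array. The differences were −0.42 (−0.71 without replicate 4) and −0.56 (SE 0.26). The second MXD3 probe, designed on another transcript, differed by −0.05 and −0.04 with overlapping groups.

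MXD4 overlapped on all 3 of its probes, with differences between −0.18 and 0.10 over both doses. Its 3 probes lay between −0.16 and −0.06 at 28 µM when replicate 4 was left out. MXI1, the fourth of these repressors, had 1 probe and a narrow spread: 9.004, 8.95, 8.93 and 9.01 on DMSO, 9.06, 9.33, 9.06 and 9.02 at 28 µM, and 9.36, 9.20, 9.15 and 9.18 at 42 µM. All treated arrays were above DMSO at both doses, with differences of 0.15 and 0.25 (SE 0.10). The gap at 28 µM was 0.01.

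MNT, the broadly expressed repressor that pairs with MAX, read 11.60, 11.58, 11.54 and 11.71 on DMSO, 11.94, 11.92, 12.15 and 11.23 at 28 µM, and 12.05, 11.72, 12.14 and 11.88 at 42 µM. The 42 µM arrays were all above DMSO, with a difference of 0.34 (SE 0.17). At 28 µM replicate 4 lay below DMSO and the other 3 arrays above it, and the difference of 0.20 became 0.40 without that array.

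MGA had 5 probes, all overlapping at both doses. Their differences were 0.03 to 0.14 at 28 µM and 0.05 to 0.31 at 42 µM, positive on every probe, and 0.01 to 0.23 at 28 µM without replicate 4. MLX had 3 overlapping probes, with differences of 0.10, 0.20 and −0.04 at 28 µM and −0.04, 0.19 and −0.05 at 42 µM. When replicate 4 was left out, the MLX differences at 28 µM were 0.01, 0.13 and −0.08.

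**Figure D2:**
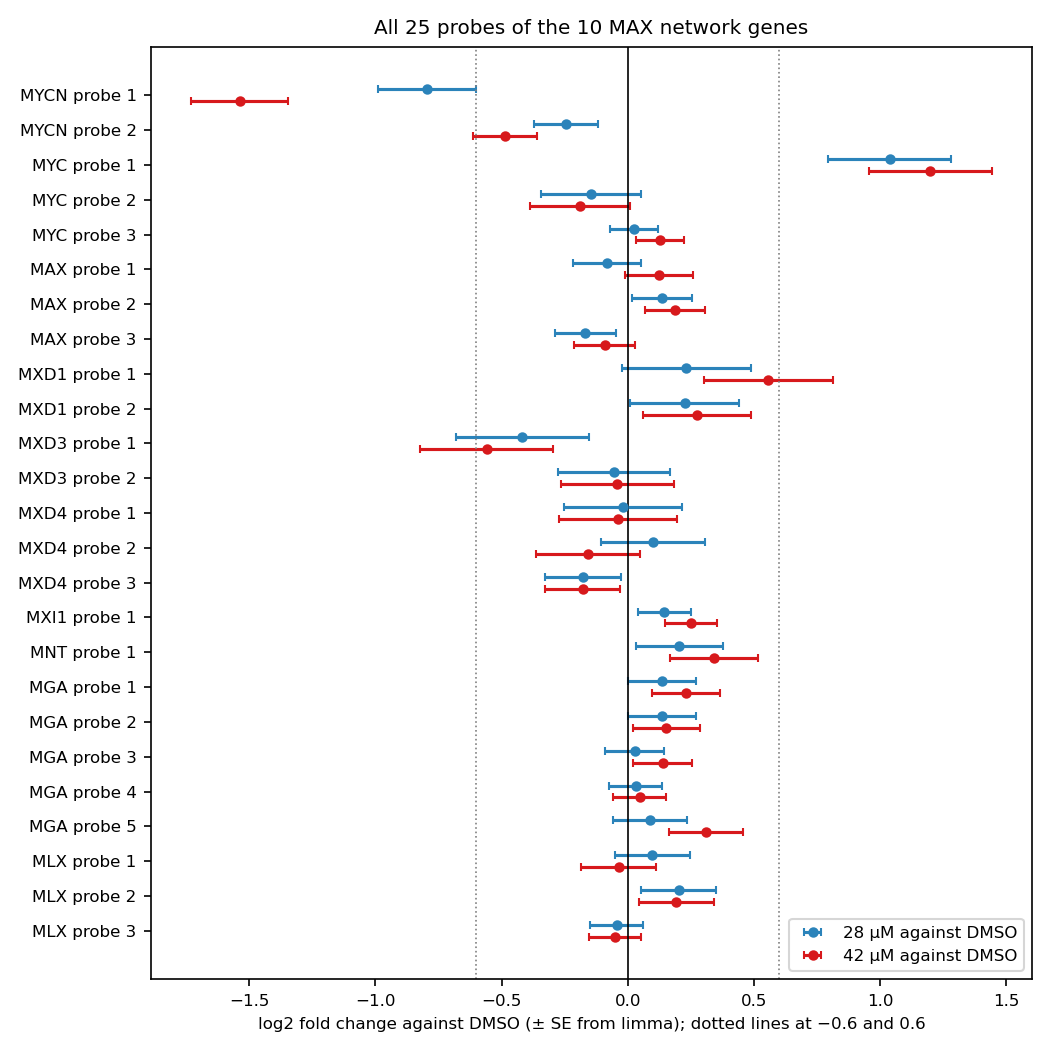
Log2 fold change against DMSO for every probe of the members (± SE from limma) at 28 µM and 42 µM; probes of a gene are ordered from brightest to dimmest and dotted lines mark −0.6 and 0.6. Past these lines lie only the brightest probes of MYCN, −0.80 and −1.54, and of MYC, 1.04 and 1.20.

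By their brightest probes, 4 members (MYC, MXD1, MXI1 and MNT) had all 42 µM arrays above DMSO and 2 (MYCN and MXD3) had all below. Over all genes these shares were 5.94% and 7.02%. At 28 µM, MYC and MXI1 were above and MYCN below, against 2.78% and 2.93%. The limits used for other genes are a Benjamini-Hochberg adjusted p of 0.05 from limma and a log2 difference of at least 0.6. At 42 µM, 1 member (MYC) lay past them upwards and 1 (MYCN) downwards, where 1.57% and 1.42% of all genes did so. At 28 µM 0 members and 0 of 24251 genes did, while an unadjusted p below 0.05 with the same log2 limit was met by 355 genes upwards and 298 downwards. The study reports changed genes at both doses under the same limits, many of them shared. Its result at 28 µM was not reproduced here, and the cause was not tested. Without replicate 4, MYC and MYCN lay past the limits at 28 µM too, against 1.45% and 0.986% of genes. As the members were chosen for this contrast, nothing is read from these counts.

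The genes whose values over the 12 arrays were nearest to those of MYCN were SPC25, CDCA8, E2F8, DLGAP5, PCLAF, SLC1A3, FAM83D and FBXO5. The measure of likeness was the root mean square difference of log2 values after each gene's DMSO mean was subtracted, over the brightest probe of each gene, and its median over the other 24250 genes was 1.04. The nearest was SPC25, a kinetochore protein, at 0.16. It was followed by CDCA8 (0.19), a part of the chromosomal passenger complex, and the atypical E2F factor E2F8 (0.20). DLGAP5 (0.21) and FAM83D (0.22) are spindle proteins, PCLAF (0.21) binds PCNA, and FBXO5 (0.23) inhibits the anaphase-promoting complex. SLC1A3 (0.21) is a glutamate and aspartate transporter. Being chosen for their likeness, these genes have differences near that of MYCN at 42 µM, from −1.27 for PCLAF to −1.56 for E2F8. The choice was made over all 12 arrays, so it also bears on their values on 28 µM replicate 4. On that array all 8 were nearer to DMSO than on the other 28 µM arrays, between −0.49 and 0.11, and MYCN lay 0.34 below its DMSO mean.

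**Figure D3:**
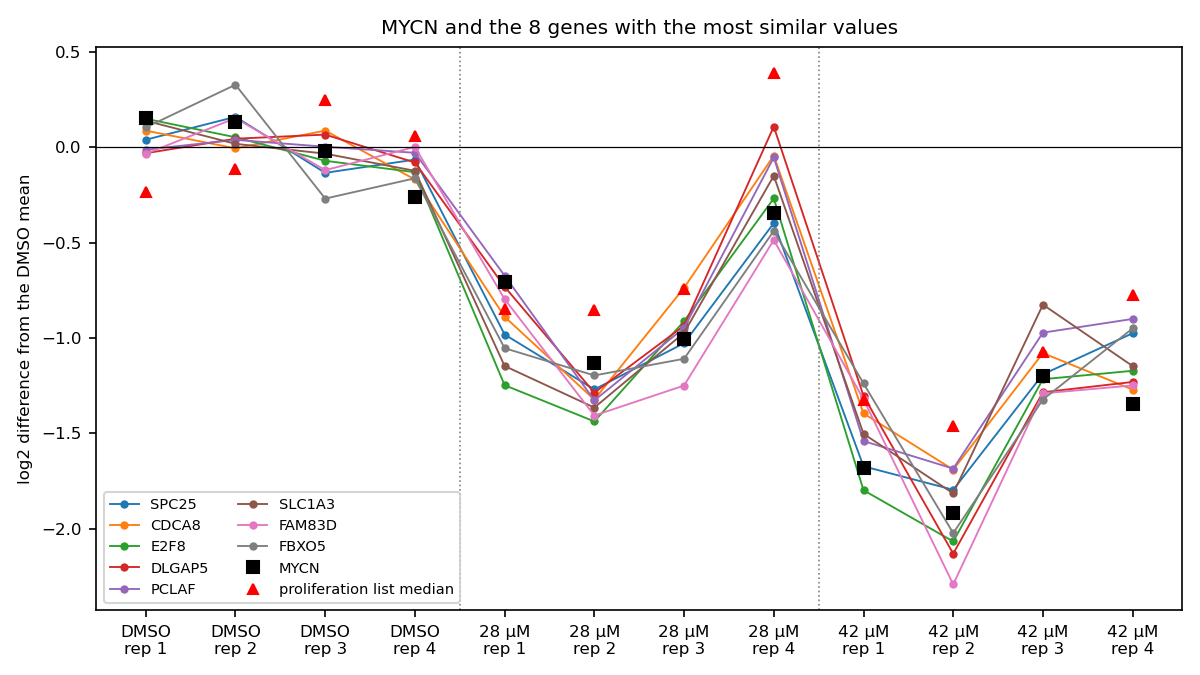
Log2 difference from each gene's DMSO mean on the 12 arrays for MYCN (black squares), for the 8 genes with the nearest values (lines) and for the median of the 6 proliferation genes (red triangles). On 28 µM replicate 4 the proliferation median is 0.39 and the nearest genes, chosen over all 12 arrays, lie between −0.49 and 0.11.

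Proliferation was described by 6 marker genes, followed beside MYCN. The level of 4 of them fell at 42 µM and 0 rose, where 1.42% of all genes were called lower and 1.57% higher. CCNB1, the mitotic cyclin B, fell by 1.22 on the log2 scale (SE 0.20, adjusted p = 0.0125 from limma). CCNA2, cyclin A, fell by 1.29 (adjusted p = 0.0377), the replication clamp PCNA by 1.08 (adjusted p = 0.0239) and the topoisomerase TOP2A by 1.02 (adjusted p = 0.0452). MKI67, which marks dividing cells, differed by −1.26 (adjusted p = 0.111 from limma) and the replication helicase gene MCM2 by −0.59 (adjusted p = 0.401). The list median was −1.15 at 42 µM and −0.59 at 28 µM, against −0.02 over all genes at both doses. Without 28 µM replicate 4 it was −0.76 at 28 µM, and CCNB1, CCNA2 and MKI67 differed there by −0.89, −1.03 and −1.26. That array was set apart by the median of these same 6 genes, so their values without it are a description and no test. On 28 µM replicate 4, where this median was 0.39, MYCN was also nearest to DMSO, and the part of these genes in its lower signal was not tested.

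The neighbours of MYCN on chromosome 2 did not all follow it. Of 9 tested genes of the region, 2 fell at 42 µM and 0 rose, against 1.42% and 1.57% of all genes. MYCNOS, transcribed from the opposite strand next to MYCN, fell by 0.63 on the log2 scale, from 9.37 ± 0.28 (SD, n = 4) to 8.75 ± 0.13 (adjusted p = 0.0367 from limma). VSNL1, a neuronal calcium sensor gene, fell by 0.94, from 10.46 ± 0.12 to 9.52 ± 0.42 (adjusted p = 0.0193). The genes between and around them did not pass: DDX1, often co-amplified with MYCN, differed by −0.18, NBAS by 0.08, CYRIA by −0.02, SMC6 by −0.05, GEN1 by 0.04, KCNS3 by −0.18 and LRATD1 by −0.33. LRATD1 had every treated array below every DMSO array, with a difference of −0.39 at 28 µM. Over all genes 2.93% lay below DMSO in this way at 28 µM and 7.02% at 42 µM. The probes of KCNS3 and GEN1 were dim, at 6.09 and 6.46 on DMSO, which limits what their differences show. The MYCNOS call held in 11 of 22 alternative settings.

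The remaining dimerization partners differed little. MYCL, the third MYC family gene, differed by −0.06 at 42 µM, and the glucose-responsive partners of MLX, MLXIP and MLXIPL, by 0.02 and −0.00 (adjusted p = 0.923, 0.974 and 0.996 from limma). Their probes overlapped between the groups, and that of MYCL was dim, at 6.33 on DMSO, which limits what its difference shows.

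Targets of the MLX branch were described by 5 genes, of which 0 passed the limits. TXNIP, the thioredoxin-interacting protein that curbs glucose uptake and a main target of MLXIP and MLXIPL, had the lowest difference of all 24251 genes at both doses, −1.63 at 28 µM and −2.29 at 42 µM (SE 0.59, adjusted p = 0.333 and 0.056 from limma). It averaged 10.05 ± 0.54 on DMSO, 8.42 ± 1.54 at the lower dose and 7.76 ± 0.63 at the higher, where every array was below DMSO. Without 28 µM replicate 4 it was at −2.40 at 28 µM (adjusted p = 0.00338 from limma), past the limits, as were 0.986% of all genes downwards. That array was set apart by its values, so this is a description and no test. PKLR, KLF10 and GPD1, other targets of the branch, lay between −0.17 and −0.05 at 42 µM with overlapping groups, and PKLR was dim (6.73 on DMSO). ARRDC4, also a target, averaged 5.94 on DMSO, near the level of the third MYC probe. A lower value could hardly be read there, which limits its difference of −0.12.

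Genes known to be activated by MYC were described in 4 lists, of which 1 held called genes at 42 µM. In fuel metabolism and uptake 2 of 10 fell and 0 rose, against 1.42% and 1.57% of all genes, with a list median of −0.14. LDHA, which makes lactate from pyruvate, fell by 1.28 on the log2 scale (SE 0.29, adjusted p = 0.0339 from limma), and the glucose transporter gene SLC2A1 by 0.82 (adjusted p = 0.0387). At 28 µM LDHA passed only without replicate 4, at −1.01 (adjusted p = 0.0474), where 0.986% of all genes were called lower. As that array was set apart by its values, this is a description and no test. Of 21 ribosome biogenesis genes 0 passed, with a median of −0.12 and the largest difference for PNO1 (−0.47, adjusted p = 0.108). Of 10 tested genes of nucleotide and polyamine synthesis 0 passed both limits, the nearest being CTPS1, which makes CTP (−0.58, adjusted p = 0.0435). Of 15 genes of translation, mitochondria and cycle 0 passed, with a median of −0.15 and the largest difference for the phosphatase CDC25A (−1.14, adjusted p = 0.105). CDK4, a cyclin-dependent kinase of this list named after its values were seen, was higher by 0.58 (adjusted p = 0.0411 from limma). It stayed under the log2 limit, with every treated array above every DMSO array.

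Genes known to be repressed by MYC moved in both directions: of 13, 1 rose and 1 fell at 42 µM, around a median of −0.11. Over all genes 1.57% rose and 1.42% fell. GADD45A, a stress gene that p53 also activates, rose by 1.29 on the log2 scale, from 10.62 ± 0.36 to 11.91 ± 0.39 (adjusted p = 0.0146 from limma). CDKN1C, a cyclin-dependent kinase inhibitor, fell by 1.08 (adjusted p = 0.0464). Without 28 µM replicate 4 both were also past the limits at 28 µM, at 1.14 and −1.21 (adjusted p = 0.0285 and 0.0294 from limma). Over all genes 1.45% were then past them upwards and 0.986% downwards. That array was set apart by its values, so these differences are a description and no test.

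**Figure D4:**
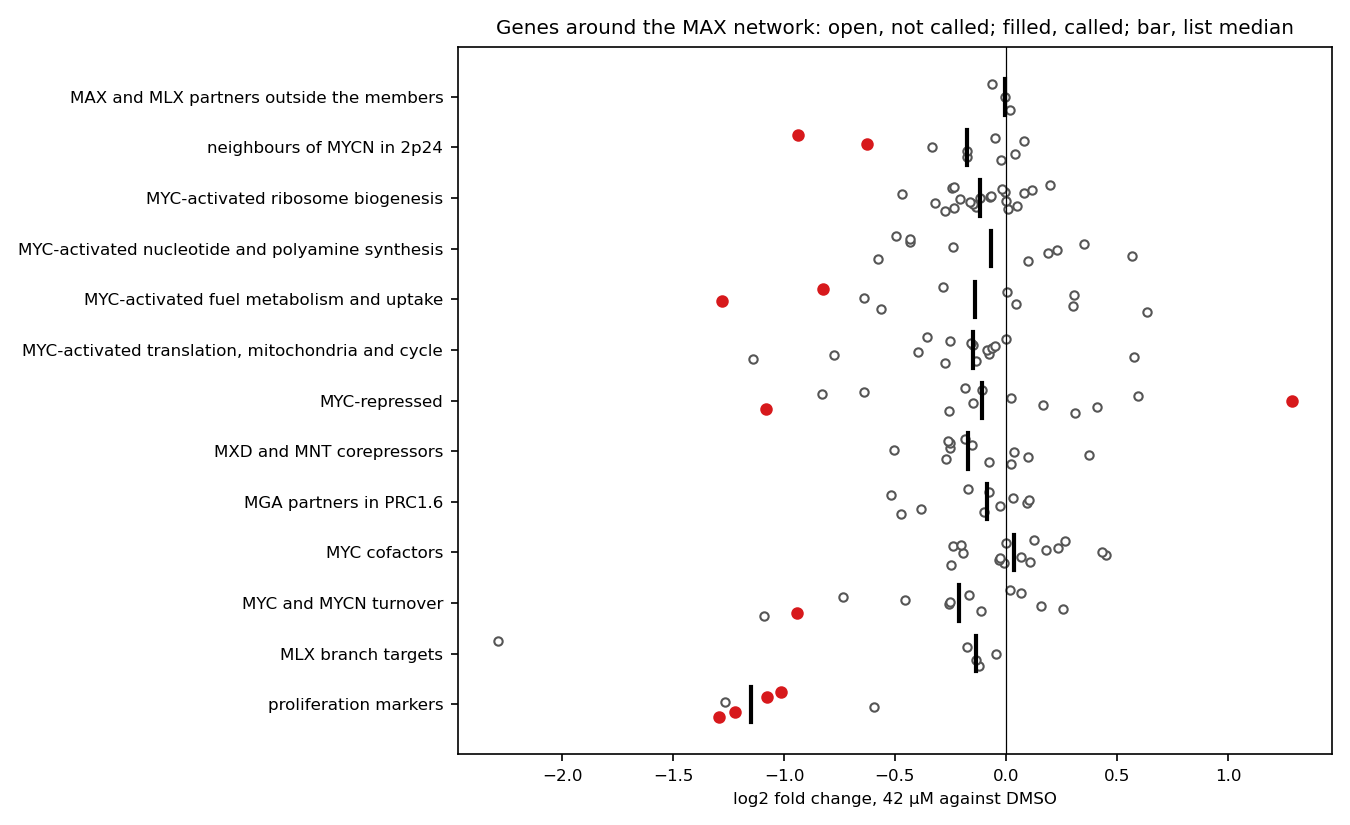
Log2 fold change at 42 µM against DMSO of the genes in each list around the MAX network; open circles did not pass the limits, filled circles did, and the bar is the list median. Only the proliferation list has a median far from 0, at −1.15.

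Genes for proteins that work with the members at chromatin stayed within the limits. Of 12 corepressor genes 0 passed at 42 µM (median −0.17), and the largest difference was that of RBBP7, a histone-binding subunit (−0.51, adjusted p = 0.0573 from limma). Of 10 partners of MGA in its Polycomb complex 0 passed (median −0.09), led by TFDP1, a partner of E2F factors, at −0.52 (adjusted p = 0.24). Of 16 MYC cofactors 0 passed (median 0.04), and EP400, the nucleosome remodelling ATPase, had the largest difference, 0.45 (adjusted p = 0.0539).

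Among 12 genes that set the stability of MYC and MYCN proteins, 1 fell at 42 µM and 0 rose, with a median of −0.21. Over all genes 1.42% fell and 1.57% rose. CIP2A, which protects MYC from the phosphatase PP2A, fell by 0.94 on the log2 scale, from 8.74 ± 0.09 to 7.80 ± 0.35 (adjusted p = 0.018 from limma). AURKA, a kinase that stabilizes MYCN and is named here after its values were seen, had the largest difference of the list at 42 µM. It was −1.09 (adjusted p = 0.0568 from limma), not past the limits, with every array below DMSO. Without 28 µM replicate 4 it was past the limits at 28 µM, at −0.90 (adjusted p = 0.0382), as were 0.986% of all genes downwards. That array was set apart by its values on proliferation genes, so this is a description and no test. The protein levels of the members were not measured on these arrays.

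Calls at 42 µM depended on single arrays over all 24251 genes. Leaving out 1 array at a time gave 0 to 541 genes higher and 0 to 454 lower, against 381 and 344 with all arrays. The calls of the list genes also depended on single arrays and on the slide. Of the list genes named with a call at 42 µM, 0 passed with the slide as a block in the model, or without DMSO replicate 2 or 42 µM replicate 2. Under these 3 settings the differences were −1.52, −1.49 and −1.41 for MYCN and 1.25, 1.21 and 1.10 for MYC, and neither lay past the limits. MYC was also under them without DMSO replicate 1 (1.17), DMSO replicate 4 (1.16) or 42 µM replicate 1 (1.04). For these members that describes the values and is no test. Of 22 alternatives, GADD45A and CCNB1 kept their calls in 19, CIP2A in 18, VSNL1 and PCNA in 16, LDHA in 13, SLC2A1 in 12, CCNA2 in 11, and CDKN1C and TOP2A in 9.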

How the data were processed

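RNA of 12 HuH-7 samples was hybridised to 1-colour arrays, 4 for each of DMSO, 28 µM and 42 µM SLMP53-2, and groups were taken from the sample labels. The authors deposited Feature Extraction 10.7.3.1 output with a mean and a background intensity per spot, and a table of log2 values made with an Edwards background correction and quantile normalization. Depth does not apply to arrays, and the number of arrays limits the precision.

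From the deposited intensities, control and outlier-flagged spots were removed, and the Edwards correction (offset 0), quantile normalization and log2 scale of limma 3.58.1 in R 4.3.3 were applied, as in the study's methods, before spots of a probe were averaged. The result correlated with the deposited log2 values at 0.999 or more on every array. A probe was kept if well above background on at least 2 arrays of a group, which left 33467 and removed 7533. The 12 arrays entered 1 model (lmFit, eBayes), two-sided, with Benjamini-Hochberg adjustment over all probes kept. A gene was called at an adjusted p below 0.05 and a log2 difference of at least 0.6, and the brightest probe stands for a gene. Quantile normalization takes the distribution of values to be the same on all arrays, so differences are relative to it. Probe positions are those of hg19 in the files, and RefSeq of GRCh38.p14 gave names for 68.5% of the probes and the promoters.

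The members, lists, motifs and tests were chosen with earlier results of these data known. Named are all members, all genes of the partner, neighbour, MLX target and proliferation lists, up to 3 called genes of each other list or else its largest difference, and the 8 genes nearest to MYCN. AURKA and CDK4 were added after their values were seen. The fit was tested on simulated data. Alternatives were normexp with an offset of 50, scaling to the 75th percentile of the processed signal or the Edwards values, the authors' normalized values, no filter or a strict one, the slide as a block or a random block, the replicate number as a block, a model of only 2 groups, a log2 limit of 1, and each array left out in turn. Python 3.11.15 with pandas 2.3.3 and matplotlib 3.10.9 made the promoter search and the plots.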

Additional observations from a re-analysis of the deposited data

Results flagged for a closer look

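Among 114 groups of 4 arrays, 75 of them of member probes, 11 held an array far from the other 3, 5 of these in member probes. Chance alone flags about 1 group in 20, and no explanation was weighed. MAX read 11.20 on 42 µM replicate 4, against 11.44 to 11.47 on the other arrays of the group. MXD1 read 8.33 on DMSO replicate 3, against 8.90 to 8.96. A dimmer MXD4 probe read 7.22 on DMSO replicate 2, against 7.87 to 7.93, and another 7.32 on 28 µM replicate 2, against 7.01 to 7.06. MXI1 read 9.33 on 28 µM replicate 2, against 9.02 to 9.06.

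The other flagged values are list medians of the difference from the DMSO mean. The 3 partners outside the members were at −0.36 on 28 µM replicate 1 (others 0.01 to 0.07), and the MYC-repressed genes at −0.090 on DMSO replicate 2 (others 0.06 to 0.07). The MGA partners were at 0.10 on 28 µM replicate 4 (others −0.07 to −0.06) and at −0.21 on 42 µM replicate 2 (others −0.123 to −0.120). On 28 µM replicate 4 the MLX targets were at −0.13 (others −0.40 to −0.36) and the proliferation genes at 0.39 (others −0.86 to −0.74).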

How the results depend on the processing

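The differences of MYCN and MYC kept their direction in all 22 alternatives at both doses and stayed within 1 replicate SD. MYCN ranged from −1.005 to −0.68 at 28 µM and from −1.70 to −1.41 at 42 µM, and MYC from 0.91 to 1.27 and from 1.04 to 1.35. The members were chosen from these differences, so their counts below are a description. Of 1010 values of other member probes, 6 moved by over 1 SD and 32 turned sign, 0 of them by over 1 SD. The cause of the changes in the counts below was not tested.

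All following counts are of genes called at 42 µM. Counts over all genes are not given beside them, so nothing is read about the lists. With the processed signal scaled to the 75th percentile, 0 members were higher, and 1 corepressor, 1 fuel gene, 1 neighbour and 2 proliferation genes were lower. With the Edwards values scaled so, 1 MLX target, 1 corepressor, 2 turnover, 2 nucleotide and 2 MYC-repressed genes and 1 neighbour were lower. Without a filter 0 MYC-repressed genes were lower, and with the strict filter 1 MLX target was. The slide as a block gave 0 members in either direction and 0 turnover, fuel, neighbour and proliferation genes lower and 0 MYC-repressed genes higher or lower, and the slide as a random block 1 MLX target, 2 turnover and 2 MYC-repressed genes lower. With only the groups compared, 1 MLX target, 2 turnover, 1 fuel, 1 translation and cycle and 3 MYC-repressed genes were lower, and with a log2 limit of 1, 0 turnover genes, 1 fuel gene and 0 neighbours. The replicate numbers were not taken to pair the arrays. Same-numbered arrays correlated from −0.46 to 0.62, over 0.1 in 7 of 12 pairs, and 3 of 12 matched their own number best. These correlations cannot settle whether such arrays shared a culture batch. With the replicate number as a block, 3 turnover, 2 translation and cycle and 2 MYC-repressed genes were lower, and members were at 1 higher and 1 lower.

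Leaving out 1 array at a time gave at 42 µM 0 to 1 members higher and 0 to 1 lower, 0 to 1 MLX targets, 0 to 2 turnover, 0 to 2 fuel, 0 to 2 MYC-repressed and 0 to 2 neighbour genes lower, 0 to 5 proliferation genes lower, 0 to 1 MYC-repressed genes higher, and 0 to 1 translation and cycle genes in each direction. At 28 µM it gave 0 to 1 members in each direction, 0 to 1 MLX targets, turnover and fuel genes lower, 0 to 1 MYC-repressed genes in each direction and 0 to 3 proliferation genes lower. Over all 24251 genes it gave 0 to 541 higher and 0 to 454 lower at 42 µM, and 0 to 351 and 0 to 239 at 28 µM. Nothing is read about the lists from these counts. The third MYC probe is near background, which limits its value.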
